A study of Homo sapiens with 16 samples.

Results

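Antisense RNA genes are genes annotated on the strand opposite another gene, and 1316 of them were followed in IMR32 cells, a human neuroblastoma cell line. They were chosen by their level, as the rows of the deposited gene count table whose biotype is antisense and whose mean raw count over all 16 libraries, treated ones included, was at least 20, leaving out 6 such rows by name (MYCNOS and host genes of small nucleolar RNAs). The table has 58735 genes, of which 5583 are annotated as antisense and 1136 of these had no count in any library. At the limit, AL360270.3 and AC091948.1 had a mean count of exactly 20 and AC012615.4 had 20.1, while AC080162.1 was just outside with 19.9 and AC027601.2 and AC022400.2 each with 19.8. The 4 groups were vehicle (DMSO), 1.25 µM indisulam, 4 µM alectinib and the combination of 1.25 µM indisulam with 4 µM alectinib. All cells carried a wild-type genotype label and were treated for 24 h, and each group had 4 libraries of polyadenylated RNA. The study's title names the question, whether alectinib adds to the disruption of RNA splicing by agents that degrade RBM39.

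Antisense RNAs are mostly non-coding transcripts that overlap a gene on the other strand, or start beside its promoter and run away from it. Some act on the neighbouring gene in cis, through chromatin, transcription or pairing with its RNA, while many have no known function. A number of them are spliced and polyadenylated like messenger RNAs, and others are short-lived in the nucleus. Indisulam brings the splicing factor RBM39 to a ubiquitin ligase for degradation, and alectinib is an inhibitor of the ALK receptor kinase, which is known as a driver in some neuroblastomas.

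Of the 1316 members, 1202 overlapped a gene on the opposite strand and 1174 a protein-coding one. Of the 114 that overlapped none, 63 started head to head with a coding gene. By position, 174 members were head to head with a coding gene (starts within 1 kb, transcribed apart), 739 overlapped exon bases of an opposite coding gene, 331 lay against its introns without an exon overlap, and 72 had no coding gene opposite. In 120 of the 174 head-to-head pairs the starts were within 200 bases of each other. The coding gene opposite is called the partner here, and 1244 members had one of 1142 distinct partners, so that 89 partners faced several members.

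Head-to-head members start within 1 kb of the partner's start, so that the bases between the starts lie upstream of both genes. Whether they share a promoter was not tested. Of those named below by their change, AC015849.1, TMCC1-AS1 and AL022328.4 had partners (HEATR9, TMCC1 and SELENOO) without a matching RefSeq promoter. Differences between the changes of member and partner were not tested. The windows of the other 5 members named by their change are shown. Each is a RefSeq promoter of GRCh38.p14 (250 bases before to 50 after the partner's RefSeq start), printed 5′ to 3′ on the partner's strand. Capitals mark the bases between the member's start, which lies on the other strand, and the partner's start.
AL133367.1 and TRMT61A, chr14:103528946-103529245, plus strand: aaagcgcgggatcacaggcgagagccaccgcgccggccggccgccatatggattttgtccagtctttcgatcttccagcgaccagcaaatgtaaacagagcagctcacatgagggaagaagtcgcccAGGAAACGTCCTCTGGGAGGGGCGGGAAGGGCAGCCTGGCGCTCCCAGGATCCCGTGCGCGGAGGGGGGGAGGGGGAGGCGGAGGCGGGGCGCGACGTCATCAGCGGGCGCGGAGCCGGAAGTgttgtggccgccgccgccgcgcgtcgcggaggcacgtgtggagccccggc
MAFG-DT and MAFG, chr17:81927686-81927985, minus strand: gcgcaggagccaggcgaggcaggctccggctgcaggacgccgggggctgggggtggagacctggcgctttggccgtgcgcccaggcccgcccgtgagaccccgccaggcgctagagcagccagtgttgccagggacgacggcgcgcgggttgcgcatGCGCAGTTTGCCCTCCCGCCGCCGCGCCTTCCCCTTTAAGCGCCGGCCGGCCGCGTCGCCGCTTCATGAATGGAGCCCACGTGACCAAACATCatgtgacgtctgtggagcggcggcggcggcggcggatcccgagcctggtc
IL12A-AS1 and C3orf80, chr3:160225172-160225471, plus strand: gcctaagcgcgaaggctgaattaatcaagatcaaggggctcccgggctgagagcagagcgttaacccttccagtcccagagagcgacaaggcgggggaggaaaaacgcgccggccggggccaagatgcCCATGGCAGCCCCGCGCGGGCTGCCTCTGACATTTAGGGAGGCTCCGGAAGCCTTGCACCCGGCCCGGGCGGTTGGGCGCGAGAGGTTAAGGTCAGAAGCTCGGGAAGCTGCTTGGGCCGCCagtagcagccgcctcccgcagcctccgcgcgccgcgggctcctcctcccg
CPB2-AS1 and ZC3H13, chr13:46052697-46052996, minus strand: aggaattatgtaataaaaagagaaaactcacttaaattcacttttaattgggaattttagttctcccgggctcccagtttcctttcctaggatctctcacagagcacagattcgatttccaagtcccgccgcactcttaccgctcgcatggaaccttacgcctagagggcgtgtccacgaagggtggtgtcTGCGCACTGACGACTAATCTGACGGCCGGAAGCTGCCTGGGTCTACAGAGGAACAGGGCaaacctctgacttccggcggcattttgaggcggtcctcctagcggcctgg
AL928654.1 and MTA1, chr14:105419577-105419876, plus strand: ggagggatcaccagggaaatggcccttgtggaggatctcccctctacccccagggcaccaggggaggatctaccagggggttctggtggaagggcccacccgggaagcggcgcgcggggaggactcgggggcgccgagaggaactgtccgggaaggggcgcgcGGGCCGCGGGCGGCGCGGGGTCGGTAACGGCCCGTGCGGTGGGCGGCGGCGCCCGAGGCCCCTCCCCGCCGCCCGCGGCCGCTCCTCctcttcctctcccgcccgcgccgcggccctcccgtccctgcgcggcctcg
Between the member's start and the partner's RefSeq start lay 123 bases at TRMT61A, 93 at MAFG, 122 at C3orf80, 59 at ZC3H13 and 87 at MTA1. By the deposited coordinates, which set the head-to-head class, the starts were 112, 115, 197, 47 and 81 bases apart in the same order. The deposited start of C3orf80 lies beyond the end of its window. The windows had 69.3%, 73.3%, 68.0%, 52.0% and 77.7% G and C in the same order, against a median of 58.7% over 35116 RefSeq promoters. The letters GGGCGG (either strand) were in 4 of the 5 windows and in 45.0% of all promoters, CCAAT in 1 window, that of ZC3H13, and in 34.6%, and TATAAA in 0 windows and in 11.5%. No motif searched is part of another, and a match is a description of the letters. By symbol, 140 of the 174 head-to-head partners and 45 of the 174 head-to-head members had a RefSeq promoter.

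How reads were counted bears on every value of these genes. All 710 genes in the table whose exons lie wholly within exons of opposite-strand genes had 0 counts in all 16 libraries, and 316 of them are antisense genes, whereas 4447 of 5244 antisense genes with exon bases of their own had counts. Reads over exons of both strands were therefore given to neither gene, and the counting did not separate the strands. The 869 members that share exon bases with another gene were thus measured on their remaining bases, and reads there can come from either strand. In these data RNA of a member and unspliced RNA of the gene opposite cannot be told apart.

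The libraries held 55.1 to 63.7 M counts in 15 of 16 cases and 90.2 M in alectinib replicate 1 (M, counts in units of 1000000). Adrenergic neuroblastoma markers (10 genes) summed to 4600 to 5020 CPM (counts per 1000000, scaled by TMM) in the vehicle libraries, 4520 to 5070 after indisulam, 3490 to 3950 after alectinib and 2660 to 3140 after both drugs, with 0 of the 10 at 0. MYCN weighed most in the sum, with means of 2440, 2440, 1790 and 1290 CPM in the same order. In the combination 7 of the 10 were called lower and 0 higher, and GATA3, TH and CHGB were not called. Of all genes 30.6% were lower there. The part of these markers in the members' changes was not tested. The 5 epithelial markers summed to at most 0.693 CPM, the 5 blood markers to at most 0.163 and the 3 endothelial markers to at most 0.889 in any library. The 7 fibroblast markers summed to 81.6 to 91.1 CPM in DMSO and 50.4 to 65.2 in the combination. THY1 and PDGFRB weighed most in this sum, with DMSO means of 52.2 and 24.5 CPM, and COL1A1 came next with 5.63. In a culture, fewer cells expressing an RNA and less of it per cell cannot be told apart. Whether the numbered libraries came from separate cultures is not stated in the labels, so p-values measure the spread between libraries, which may be technical.

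Most members were weakly expressed. Their median level was 0.967 CPM, 637 had at least 1 CPM, 64 at least 10 and 7 at least 50. HAND2-AS1 alone held 18.9% of all counts of members, and together with GABPB1-AS1 and FGD5-AS1 28.7%. Members took 0.443 to 0.483% of all counts in DMSO, 0.381 to 0.43% in indisulam, 0.526 to 0.57% with alectinib and 0.42 to 0.521% in the combination. The indisulam libraries were all below and the alectinib libraries all above the DMSO range. Without the 3 most abundant members the DMSO range was 0.298 to 0.329% and the indisulam range 0.292 to 0.336%, which overlap, and the alectinib range was 0.356 to 0.382%.

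Per length of exon (RPKM, CPM per kb of exonic length), the highest level over the 16 libraries was that of AC099850.3 with 81.3 RPKM, followed by HAND2-AS1 with 41.6, AC115618.2 with 36.4, FGD5-AS1 with 33.0 and TBX2-AS1 with 29.5. AC099850.3 shares 30.2% and AC115618.2 40.7% of its exon bases with other genes. AC115618.2, which has no coding gene opposite, had 7.88 to 8.92 CPM in DMSO, 10.7 to 13.0 in indisulam, 15.8 to 18.3 with alectinib and 24.2 to 32.3 in the combination. These 4 ranges do not overlap, and the log2 change was 0.49 ± 0.10 (SE) with indisulam, 1.04 ± 0.10 with alectinib and 1.75 ± 0.10 with the combination (adjusted p = 0.000221, 1.19e-07 and 3.2e-13, edgeR). AL359853.1, opposite FAM163A, went the other way, from 17.5 to 19.3 CPM in DMSO to 9.31 to 13.3 in indisulam, 13.3 to 15.8 with alectinib and 4.63 to 6.16 in the combination. It fell by 1.78 on the log2 scale in the combination (adjusted p = 1.8e-12) and FAM163A by 1.79 (adjusted p = 3.56e-13).

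All 1316 members passed the expression filter among 22433 genes tested, and adjusted p-values are from edgeR's quasi-likelihood test with Benjamini-Hochberg adjustment over all of these genes. Calls used a threshold of 0.05 on the adjusted p. With indisulam, 329 members were called higher and 250 lower, against 23.0% and 24.8% of all genes. With alectinib, 232 members (17.6%) were higher and 29 (2.2%) lower, against 9.99% and 12.3% of all genes. With the combination, 461 members (35.0%) were higher and 249 (18.9%) lower, against 29.7% and 30.6%. The median log2 change of members was 0.09, 0.23 and 0.25 in the same order, and that of all genes -0.01, 0.01 and 0.01. Upper-quartile scaling gave 279 members higher and 19 lower with alectinib, and moved all genes from 2242 higher and 2767 lower to 3285 and 1848. The shares differed with level. With alectinib, 35.0% of the 214 members with a mean count of 200 and over were higher and 9.35% lower. Of the 570 at 20 to under 50, 9.47% and 0.351% were, and the median log2 changes were 0.18 and 0.28. With indisulam these shares were 27.1% and 31.3%, and 21.4% and 12.5%. These differences were not tested. The 202 members with a DMSO mean under 20 counts met the minimum through treated groups.

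**Figure D1:**
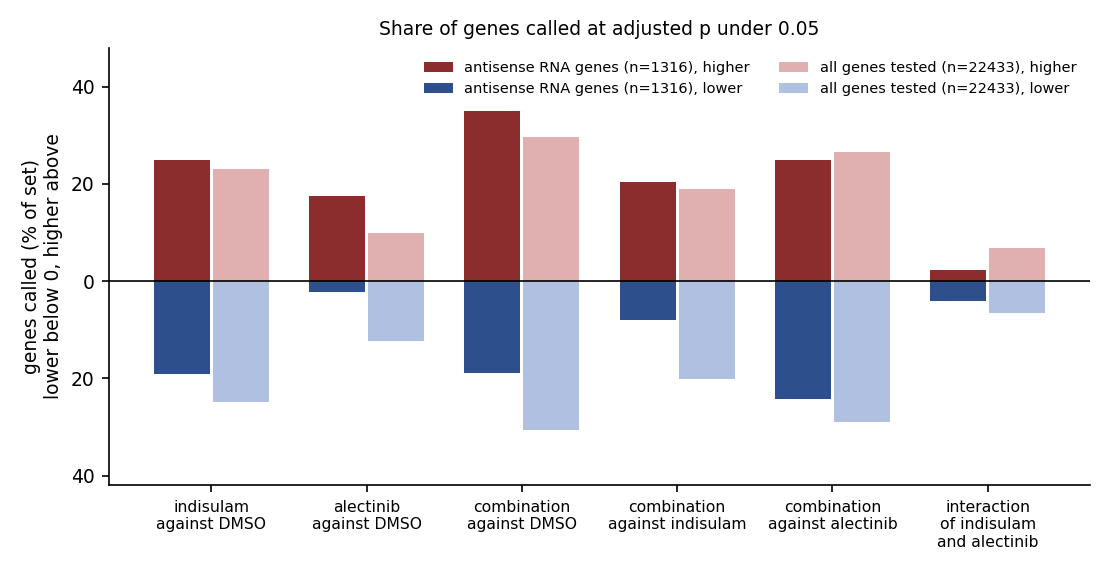
Share of the 1316 antisense RNA genes (dark bars) and of all 22433 genes tested (pale bars) called higher (above 0) or lower (below 0) at an adjusted p under 0.05, in % of each set, for 6 comparisons. With alectinib 17.6% of antisense RNA genes were higher and 2.2% lower, against 9.99% and 12.3% of all genes.

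Changes of at least 2-fold were called in 187 members higher and 101 lower with indisulam, where the shares of all genes were 6.72% and 6.81%. In alectinib 64 members were at least 2-fold higher and 2 lower (2.8% and 0.548% of all genes), and in the combination 271 and 119 (11.7% and 11.2%). In alectinib, 270 members had all 4 libraries above all 4 DMSO libraries and 40 all below, which is 20.5% and 3.04% of members against 12.7% and 13.7% of all genes, where 9.99% and 12.3% were called. The share of counts that fell on genes too weakly expressed to be tested was 0.0477 to 0.0613% in alectinib and 0.0364 to 0.0493% in DMSO, and that on sense intronic genes 0.0597 to 0.0688% against 0.0494 to 0.0576%. Their part in the result was not tested. Long intergenic RNAs (lincRNA, 1498 genes tested) had 198 higher and 16 lower with alectinib and 217 higher and 288 lower with indisulam.

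Adding alectinib to indisulam raised 269 members and lowered 104 (18.9% and 20.1% of all genes called). Adding indisulam to alectinib raised 328 and lowered 318 (26.5% and 29.0%). The interaction is the log2 change of the combination minus the sum of the single-drug changes. It was above 0 for 31 members and below 0 for 53 (6.85% and 6.63% of all genes called). Without combination replicate 4, 20 members had an interaction above 0. The number below 0 was lowest, 29, without indisulam replicate 1. These comparisons share libraries, so each stands by its own values.

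Counts were also taken by position relative to the partner. With indisulam, 27 head-to-head members (15.5%) were higher and 52 (29.9%) lower, and 103 intron-only members (31.1%) were higher and 44 (13.3%) lower. Of the exon-overlapping members 179 (24.2%) were higher, near the 23.0% of all genes, and 143 (19.4%) lower, below the 24.8% of all genes. The median log2 changes of the 3 classes were -0.18, 0.20 and 0.08. With alectinib 44 head-to-head members (25.3%) were higher and 7 (4.02%) lower, 46 (13.9%) and 4 (1.21%) of the intron-only members, and 126 (17.1%) and 18 (2.44%) of the exon-overlapping members, against 9.99% and 12.3% of all genes. Under upper-quartile scaling head-to-head members still had 31 higher and 44 lower with indisulam. Sense intronic genes (379 tested), which lie within introns on the same strand, had 122 (32.2%) higher and 30 (7.92%) lower with indisulam. Differences between these classes were not tested.

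**Figure D2:**
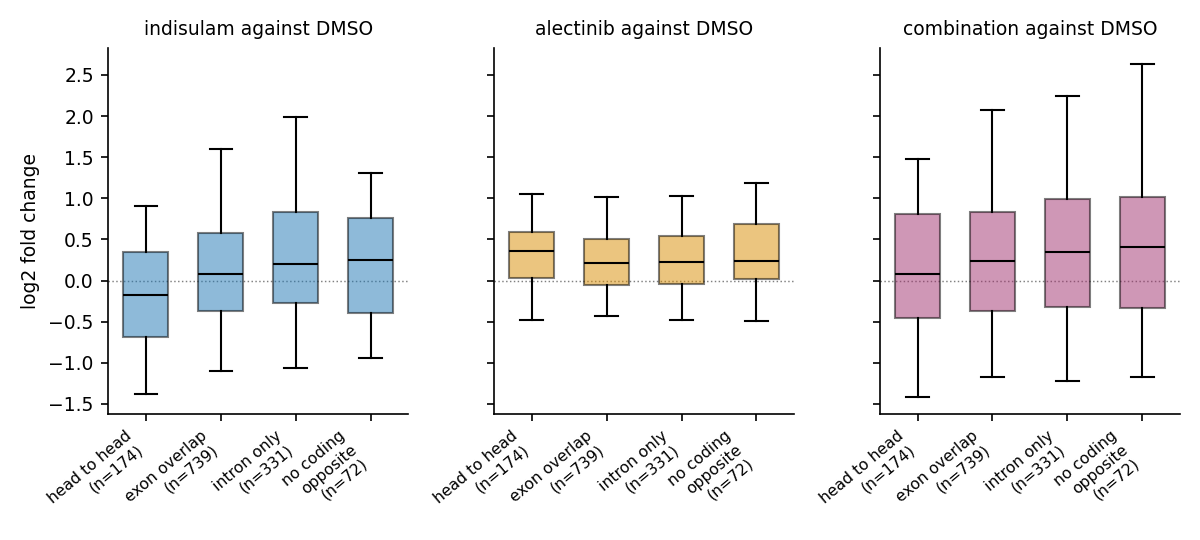
Log2 fold change against DMSO of members by position relative to the opposite coding gene, for indisulam, alectinib and the combination. Boxes span the quartiles with the median as a line and whiskers run from the 5th to the 95th percentile over members, and the head-to-head median is -0.18 with indisulam and 0.36 with alectinib.

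Members were next split by whether their exons form 1 block or several. Of 271 single-block members, 75 (27.7%) were higher and 21 (7.75%) lower with indisulam, and 121 (44.6%) higher and 21 (7.75%) lower with the combination. Of 1045 members with several blocks, which have introns to be spliced, 254 (24.3%) were higher and 229 (21.9%) lower with indisulam, and 340 (32.5%) higher and 228 (21.8%) lower with the combination. The shares of all genes were 23.0% and 24.8% with indisulam, near those of the several-block members, and 29.7% and 30.6% with the combination. Among head-to-head members, 51 of 139 several-block members and 1 of 35 single-block members were lower with indisulam. In the combination 25 of the 35 single-block head-to-head members were higher and 0 lower, by edgeR, with a median log2 change of 0.84. DESeq2 called 27 of them higher and 0 lower. Median exonic length was 1514 bases in single-block and 1578 in several-block members, and the difference between them was not tested.

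**Figure D3:**
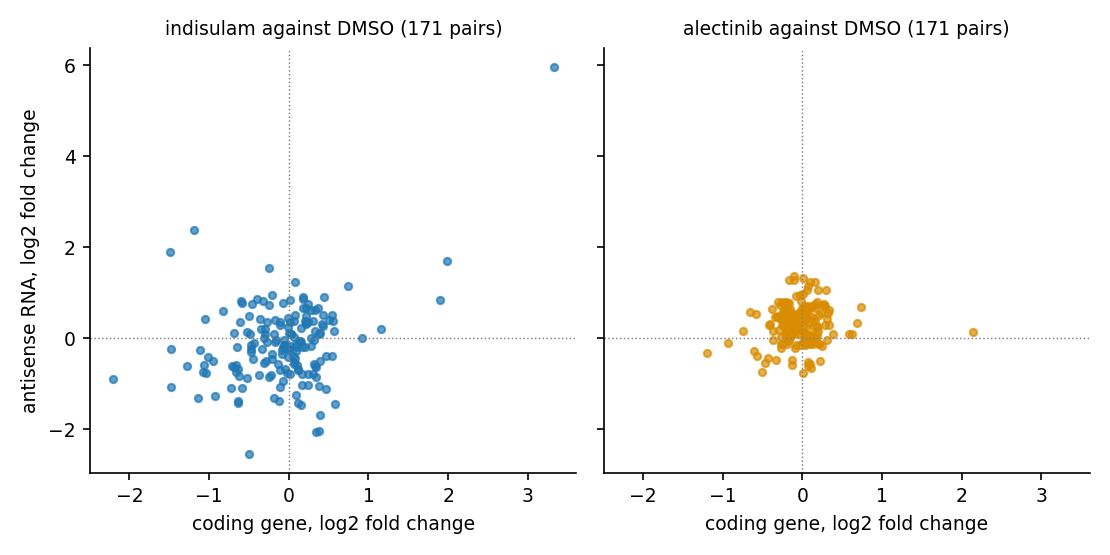
Log2 fold change of 171 head-to-head antisense RNA genes (vertical axis) against that of their coding partners (horizontal axis), with indisulam and with alectinib, each point 1 pair. The point at the top right with indisulam is AC015849.1 with HEATR9, at 5.96 and 3.33.

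The log2 changes of members and partners were weakly correlated. Over 1216 pairs with both genes tested, 108 were both higher and 79 both lower with indisulam, while in 78 the member rose and the partner fell and in 55 the reverse. Pearson's r between their log2 changes was 0.185 over all pairs and 0.344 over 171 head-to-head pairs, across genes measured in the same libraries. Without AC015849.1 and HEATR9 it was 0.149 over 170 head-to-head pairs, so that the larger value rests on 1 pair. With alectinib 32 pairs were both higher, 8 both lower, 34 member higher and partner lower, and 2 the reverse. In the combination the 4 counts were 177, 138, 136 and 46. Over all pairs Pearson's r was 0.179 with alectinib and 0.294 with the combination. Over 720 pairs of exon-overlapping members it was 0.198 with indisulam, 0.202 with alectinib and 0.343 with the combination.

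HAND2-AS1 (chromosome 4, 173527270 to 173659696, plus strand) was by far the most abundant member, opposite HAND2, a transcription factor of the sympathetic lineage. It had 1080, 1090, 1110 and 1090 CPM in DMSO, 624, 592, 585 and 600 in indisulam, 1120, 1100, 1230 and 1190 with alectinib, and 747, 636, 709 and 614 in the combination. The libraries with indisulam were all below those without it. HAND2-AS1 fell by 0.86 ± 0.06 (SE) on the log2 scale with indisulam (adjusted p = 4.08e-11) and by 0.69 ± 0.06 with the combination (adjusted p = 5.37e-10), and its change with alectinib was 0.09 ± 0.06 (adjusted p = 0.307). HAND2 itself had 725 ± 34.5 CPM (SD, n = 4) in DMSO, 718 ± 36.2 in indisulam, 573 ± 52.5 with alectinib and 480 ± 65.4 in the combination. Its log2 change was -0.02 with indisulam (adjusted p = 0.89), -0.34 with alectinib (adjusted p = 0.00298) and -0.60 with the combination (adjusted p = 6.07e-07). Of the exon bases of HAND2-AS1, 4.09% are shared with another gene.

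**Figure D4:**
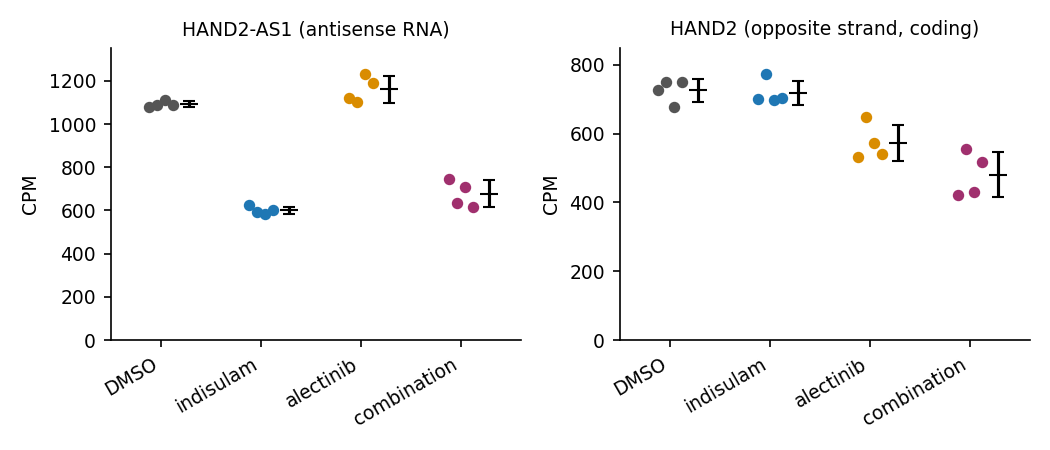
Level of HAND2-AS1 and of HAND2 in CPM (vertical axes from 0) in the 4 libraries of each group, with the mean and SD at the right of each group. HAND2-AS1 lies at 585 to 747 CPM in the 8 libraries with indisulam and at 1080 to 1230 in the 8 without it.

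AC015849.1 (chromosome 17, 35868967 to 35885863, plus strand) lies head to head with HEATR9. It had 11 counts in the 4 DMSO libraries together and 757 in the indisulam libraries, or 0.0174 to 0.089 CPM against 2.34 to 3.69. It was at 1.59 to 3.95 CPM in the combination and 0.0331 to 0.171 in alectinib. It met the minimum count and the 1 CPM minimum only through the groups with indisulam, so that it had to differ to be named, and its values are a description. The log2 change was 5.96 ± 0.41 (SE) with indisulam, and that of HEATR9 was 3.33 ± 0.33.

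AL359922.2 (chromosome 9, 21858910 to 21861926, minus strand) is a single-block member opposite MTAP, the enzyme of methionine salvage. It had 2.23, 2.12, 1.98 and 1.6 CPM in DMSO, 23.5, 20.1, 21.2 and 18.0 in indisulam, 3.01, 3.63, 3.06 and 3.63 with alectinib, and 24.5, 18.6, 23.5 and 18.6 in the combination. Both groups with indisulam were far above the others, and alectinib was above DMSO. The log2 change was 3.38 ± 0.13 with indisulam (adjusted p = 7.02e-15) and 0.75 ± 0.13 with alectinib (adjusted p = 0.000296), while MTAP rose by 0.53 with indisulam (adjusted p = 4.51e-06).

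CCDC13-AS1 (chromosome 3, 42732575 to 42746768, plus strand) was at 0.105 to 0.313 CPM in DMSO, 0.966 to 1.88 in indisulam and 2.27 to 3.2 in the combination. It met the 1 CPM minimum only through the groups with indisulam, so that its values are a description. It rose by 2.96 with indisulam (adjusted p = 1.03e-08) and 3.83 with the combination (adjusted p = 4.03e-11), and CCDC13 by 2.88 and 3.71 (adjusted p = 1.85e-07 and 1.08e-09). AL357033.1 and AL357033.3, both within introns of the organic anion transporter gene SLCO4A1, rose by 2.57 and 2.54 with indisulam (adjusted p = 2.18e-06 and 2.6e-09), while SLCO4A1 changed by 0.01 (adjusted p = 0.927). AC107398.2, opposite the lipid flippase gene ATP10D, BAALC-AS1, whose partner FZD6 is a Wnt receptor, and AC091887.1, opposite the leucyl-tRNA synthetase gene LARS, rose by 3.36, 2.89 and 2.89 (adjusted p = 5.58e-09, 5.36e-11 and 4.79e-10). LARS fell by 0.39 (adjusted p = 5.83e-06).

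Among the falls with indisulam, SGMS1-AS1 (chromosome 10, 50624951 to 50641451, plus strand), beside the sphingomyelin synthase gene SGMS1, had 2.13, 2.16, 2.38 and 2.12 CPM in DMSO and 0.209, 0.306, 0 and 0.338 in indisulam. It was at 3.31 to 3.99 CPM in alectinib and 0.267 to 0.614 in the combination, so the libraries with indisulam were all below the others. It fell by 3.36 ± 0.38 on the log2 scale with indisulam (adjusted p = 1.01e-07), and SGMS1 by 0.36 (adjusted p = 0.00656).

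TMCC1-AS1 (chromosome 3, 129893811 to 129918575, plus strand), head to head with the endoplasmic reticulum gene TMCC1, had 9.2, 10.5, 9.75 and 8.82 CPM in DMSO, 2.4, 2.36, 1.9 and 2.51 in indisulam, 14.8, 13.5, 16.8 and 17.3 with alectinib, and 2.83, 3.42, 2.52 and 2.67 in the combination. Alectinib was above DMSO and both groups with indisulam below it. It fell by 2.06 ± 0.13 with indisulam (adjusted p = 5.39e-12) and rose by 0.70 ± 0.11 with alectinib (adjusted p = 9.66e-05), while TMCC1 rose by 0.34 with indisulam (adjusted p = 0.000743).

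Some other falls with indisulam lay at genes whose coding partner rose. ZBED5-AS1 fell by 2.63 on the log2 scale and ZBED5 rose by 0.56 (adjusted p = 2.08e-07 and 6.88e-07), ZNF337-AS1 fell by 2.49 and ZNF337 rose by 0.55 (adjusted p = 1.51e-09 and 0.000302), and SRRM2-AS1 fell by 2.15 while SRRM2, a scaffold of nuclear speckles, rose by 0.28 (adjusted p = 1.06e-06 and 0.000113). AC091729.3 fell by 2.56 and its partner ZFAND2A rose by 0.32 (adjusted p = 1.2e-08 and 0.0252). AC068768.1 fell by 3.2 on the log2 scale, as C12orf65 did by 0.51 (adjusted p = 2.52e-10 and 1.09e-06). AP001029.2 fell by 2.09 (adjusted p = 6e-08), with a change of 0.06 in the actin nucleator gene SPIRE1 (adjusted p = 0.462).

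With alectinib, the largest rise among members of at least 1 CPM was that of LUCAT1 (chromosome 5, 91054834 to 91314547, minus strand), a transcript known from lung cancer cells and oxidative stress. It had 0.697, 0.773, 1.07 and 1.22 CPM in DMSO, 0.677, 0.685, 0.809 and 1.35 in indisulam, 3.25, 2.55, 2.12 and 2.79 with alectinib, and 2.4, 3.15, 3.4 and 3.46 in the combination. Both groups with alectinib were above both without it. The log2 change was 1.51 ± 0.23 with alectinib (adjusted p = 4.23e-05) and -0.09 ± 0.24 with indisulam (adjusted p = 0.79). LUCAT1 met the 1 CPM minimum only through the groups with alectinib, so that its values are a description.

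AATBC rose by 1.36 with alectinib, 0.84 with indisulam and 2.13 with the combination (adjusted p = 5.73e-07, 4.46e-05 and 8.58e-12). MYT1L-AS1, opposite the neuronal transcription factor gene MYT1L, rose by 1.33 with alectinib and 2.68 with the combination (adjusted p = 2.68e-05 and 2.65e-11), where MYT1L changed by -0.03 and 0.16 (adjusted p = 0.837 and 0.0957). AC078942.1, in an intron of PTPRN2, a gene of secretory vesicles, rose by 1.21 while PTPRN2 fell by 0.57 (adjusted p = 0.000857 and 7.22e-05). AC095055.1, AC107375.1, AC121761.1 and AL133367.1 rose by 1.19, 1.18, 1.16 and 1.15 (adjusted p = 0.00149, 9.78e-07, 0.00204 and 0.000188). TRMT61A, a tRNA methyltransferase subunit and the head-to-head partner of AL133367.1, changed by 0.08 (adjusted p = 0.691) where AL133367.1 rose.

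The falls with alectinib were smaller. TMPO-AS1, beside the lamina-associated gene TMPO, and Z97989.1 each fell by 0.78 (adjusted p = 0.000194 and 2.38e-06), AL138921.2 by 0.76 (adjusted p = 0.00158) and PRKAG2-AS1 by 0.61 (adjusted p = 0.00018). AC002454.1, opposite the cell cycle kinase gene CDK6, had 17.0 to 20.5 CPM in DMSO and 9.88 to 13.6 in alectinib and fell by 0.64 (adjusted p = 0.000174), with a change of -0.09 in CDK6 (adjusted p = 0.45). AL022328.4 fell by 0.62 and AC003102.1, opposite the RNA polymerase I factor gene UBTF, by 0.60 (adjusted p = 0.0463 and 0.0275). Both calls were lost under upper-quartile scaling (adjusted p = 0.0772 and 0.0517). That of AL022328.4 was also lost without any 1 of 7 libraries (adjusted p up to 0.136, without alectinib replicate 1), and that of AC003102.1 without any 1 of 4 (adjusted p up to 0.105, without DMSO replicate 4).

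MAFG-DT (chromosome 17, 81927829 to 81930753, plus strand), head to head with MAFG, a small Maf transcription factor, fell in all 3 treatments. It had 13.3, 17.0, 12.1 and 15.3 CPM in DMSO, 5.41, 8.29, 7.78 and 6.3 in indisulam, 8.62, 9.76, 8.89 and 9.16 with alectinib, and 2.83, 4.83, 2.75 and 3.14 in the combination. All treated libraries were below all DMSO libraries, and those of the combination below all others. The log2 change was -1.06 ± 0.15, -0.67 ± 0.15 and -2.09 ± 0.16 (adjusted p = 5.07e-06, 0.00268 and 1.01e-10), whereas MAFG rose by 0.38 with indisulam and 1.12 with the combination (adjusted p = 0.0022 and 6.28e-10).

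IL12A-AS1 (chromosome 3, 159909382 to 160225299, minus strand) rose in the combination and was not called with indisulam (adjusted p = 0.135) or alectinib alone (adjusted p = 0.347). It had 0.592, 0.611, 0.214 and 0.139 CPM in DMSO, 0.661, 0.631, 0.512 and 0.564 in indisulam, 0.457, 0.547, 0.537 and 0.606 with alectinib, and 2.83, 3.35, 3.35 and 4.91 in the combination. The combination was above every other library. IL12A-AS1 met the 1 CPM minimum only through the combination and had to be high there to be named. The values of IL12A-AS1 are therefore a description. Its log2 change was 3.21 ± 0.31 with the combination (adjusted p = 3.54e-09) and the interaction was 2.15 ± 0.44 (adjusted p = 0.00219). C3orf80, its head-to-head partner, fell by 1.36 with the combination (adjusted p = 1.45e-08).

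AC109597.2, FLJ16779, AC095055.1 and UNC5B-AS1 had interactions of 1.40, 1.35, 1.33 and 1.31 (adjusted p = 0.00499, 0.00694, 0.0125 and 0.0224). UNC5B-AS1, in an intron of the netrin receptor gene UNC5B, had 0.356 to 1.1 CPM in DMSO, 0.739 to 1.22 in indisulam, 0.845 to 0.978 with alectinib and 2.04 to 3.88 in the combination. It met the 1 CPM minimum only through the combination, so that its values are a description. Interactions below 0 were largest for AC107398.2, AC091887.1, AC073896.3 and AP001922.5, at -1.37, -1.31, -1.23 and -1.16 (adjusted p = 0.0362, 0.00661, 0.000868 and 0.0195). The first was lost without any 1 of 8 libraries (adjusted p up to 0.116, without alectinib replicate 1) and the last without indisulam replicate 1 (adjusted p = 0.0612). AC073896.3 had 2.44 to 2.99 CPM in DMSO, 1.59 to 2.23 in indisulam, 3.5 to 4.55 with alectinib and 0.943 to 1.42 in the combination, so that alectinib raised it alone and the combination was below every other library.

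Further members led the combination. AL590666.1 rose by 3.06 and AC018410.2, in an intron of the DNA damage gene DDB2, by 3.05 (adjusted p = 1.51e-11 and 5.57e-08), and DDB2 rose by 0.59 (adjusted p = 4.6e-07). CPB2-AS1 fell by 2.05 with indisulam and 2.21 with the combination (adjusted p = 3.03e-08 and 4.75e-09), while ZC3H13, of the complex that methylates adenosine in messenger RNA, rose by 0.39 and 0.35 (adjusted p = 9.48e-06 and 1.76e-05). AL928654.1 fell by 1.87 and MTA1, of the NuRD chromatin complex, by 0.30 (adjusted p = 4.95e-10 and 0.000749). Against indisulam alone, the combination lowered AC138028.2 by 1.51 and H1FX-AS1 by 1.34, and AL035587.1 by 1.23 from 8.29 to 9.42 CPM in indisulam to 3.49 to 4.13.

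**Figure D5:**
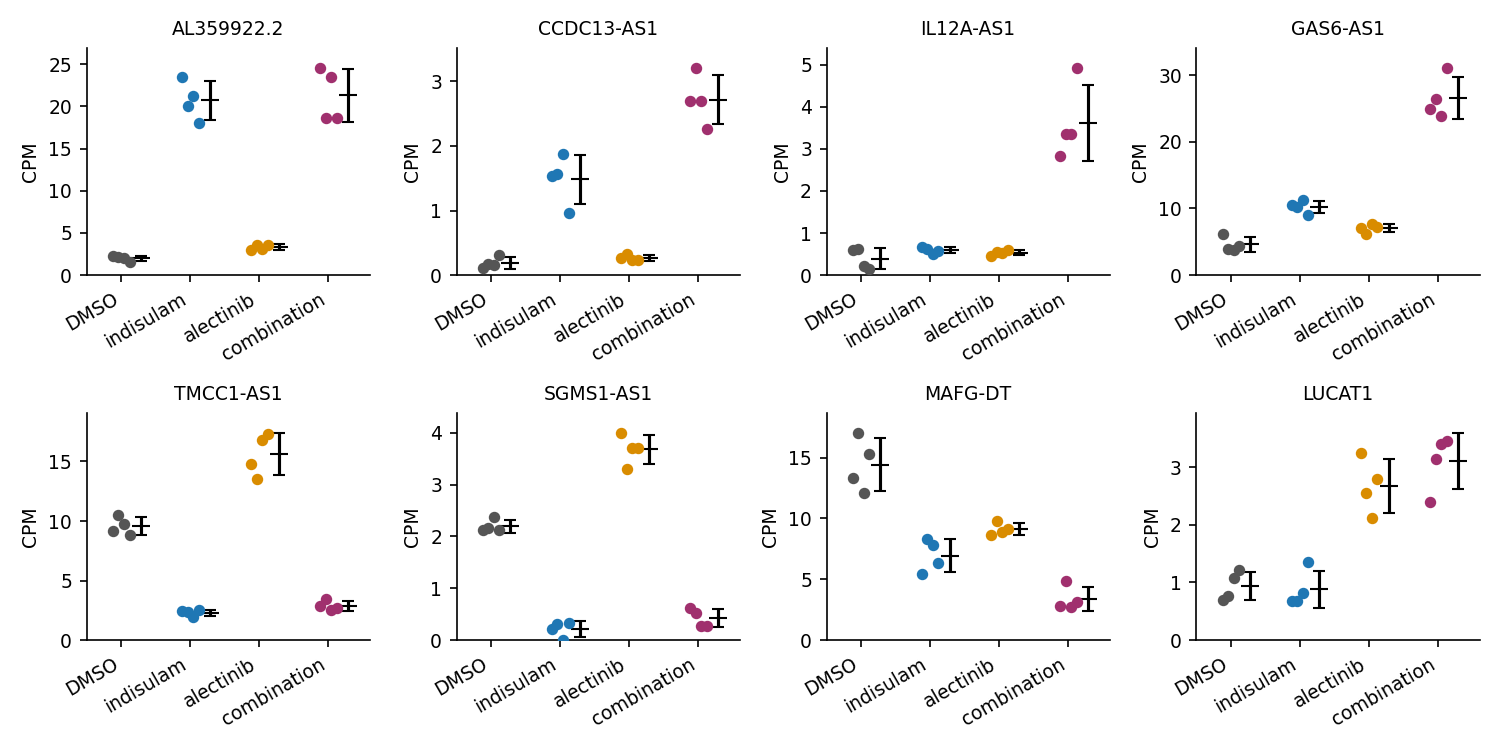
Levels in CPM (vertical axes from 0, separate scales) of 8 members in the 4 libraries of each group, with the mean and SD at the right of each group. AL359922.2 and CCDC13-AS1 are high in both groups with indisulam, IL12A-AS1 and GAS6-AS1 are highest in the combination, TMCC1-AS1 and SGMS1-AS1 are low with indisulam, MAFG-DT is lowest in the combination and LUCAT1 is high in both groups with alectinib.

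Among 40 antisense RNAs known from the literature, 22 were members, of which 5 rose and 10 fell with indisulam, 6 rose and 3 fell with alectinib, and 8 rose and 10 fell with the combination. Of all genes, 23.0% and 24.8% were higher and lower with indisulam, 9.99% and 12.3% with alectinib, and 29.7% and 30.6% with the combination. The median log2 changes of the 22 were -0.26, 0.13 and 0.03. Over the 32 tested genes of the same list, members or not, 6 rose and 13 fell with indisulam, 8 rose and 3 fell with alectinib, and 14 rose and 14 fell with the combination, with medians of -0.17, 0.17 and 0.23. GAS6-AS1, opposite GAS6, a ligand of TAM receptor kinases, had 3.84 to 6.15 CPM in DMSO, 8.99 to 11.2 in indisulam, 6.21 to 7.65 with alectinib and 23.8 to 31.0 in the combination. It rose by 2.53 ± 0.13 in the combination (adjusted p = 8.86e-14) with an interaction of 0.76 ± 0.18 (adjusted p = 0.00585), where GAS6 changed by -0.04 (adjusted p = 0.719). PSMD6-AS2, opposite a proteasome subunit gene, rose by 2.40 and PSMD6 by 0.82 (adjusted p = 4.83e-10 and 2.01e-09).

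SLC16A1-AS1, opposite the lactate transporter gene SLC16A1, had 25.4 to 30.2 CPM in DMSO, 7.86 to 11.5 in indisulam, 29.1 to 37.5 with alectinib and 7.82 to 10.3 in the combination. It fell by 1.48 with indisulam (adjusted p = 4.66e-10), where SLC16A1 changed by -0.05 (adjusted p = 0.535). DLX6-AS1, a developmental enhancer RNA, fell by 0.99 with indisulam and 1.75 with the combination (adjusted p = 4.79e-06 and 5.45e-10). THAP9-AS1 rose by 0.89 with indisulam (adjusted p = 8.46e-09). KCNQ1OT1, the imprinted RNA of the KCNQ1 locus, fell by 0.67 with the combination (adjusted p = 8.94e-05), and FGD5-AS1 fell by 0.21 with indisulam (adjusted p = 0.00381).

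MCM3AP-AS1 and SNAI3-AS1 start beside genes of sterol synthesis. MCM3AP-AS1 rose by 0.42 with indisulam while LSS, lanosterol synthase, fell by 1.05 (adjusted p = 0.000414 and 3.61e-09), and SNAI3-AS1 fell by 1.28 as MVD did by 0.92 (adjusted p = 0.000458 and 5.48e-06). Apart from SLC16A1-AS1, PSMD6-AS2 and GAS6-AS1, changes of other list members that passed the test with indisulam were smaller than 1 on the log2 scale. SLC16A1-AS1 fell as given above, and PSMD6-AS2 and GAS6-AS1 rose by 1.35 and 1.15 (adjusted p = 8.2e-06 and 1.03e-07).

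At loci of neural transcription factors, 7 members were measured, of which 0 rose and 4 fell with indisulam by edgeR, 1 rose with alectinib, and 1 rose and 2 fell with the combination. Of all genes, 23.0% were higher and 24.8% lower with indisulam. The list has 12 tested genes when those that are no members are counted, and of these 2 rose and 4 fell with indisulam, with a median log2 change of -0.04 against -0.37 over the 7 members. Beside HAND2-AS1, MEIS1-AS3 fell by 1.14 with indisulam (adjusted p = 6.86e-05), from 1.51 to 2.45 CPM to 0.793 to 1.22, and MEIS1, a homeobox factor, by 0.38 (adjusted p = 2.96e-05). GATA2-AS1 fell by 0.37 (adjusted p = 0.00606) and ZFHX4-AS1 by 1.05 (adjusted p = 0.0365). TBX2-AS1, opposite the T-box factor gene TBX2, was at 24.3 to 32.7 CPM in DMSO and 42.1 to 53.9 in the combination and rose by 0.65 (adjusted p = 1.5e-05). HOXD-AS2 rose by 0.61 with alectinib (adjusted p = 0.015).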

How the data were processed

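Values start from whole-number read counts for each gene in 16 libraries, which the authors deposited in a single table without normalisation. HISAT2 2.2.1 and featureCounts 2.0.1, with Trimmomatic 0.39 and FastQC 0.11.9, are named on GRCh38 per the submitters' processing notes. The strand and other settings were not given in the sources used here. Coordinates are those of the table, and starts, ends, strands and exonic lengths of all 58735 genes were equal to GENCODE 29, the source of exon and neighbour information. Groups were taken from the sample titles. Genes were filtered with filterByExpr by group, TMM-scaled and tested by quasi-likelihood in edgeR 4.0.16 (R 4.3.3), using 1 mean per group and all libraries, which left 12 residual degrees of freedom. P-values were adjusted over 22433 genes at a threshold of 0.05, and the script was tested on simulated data. Named members are those of at least 1 CPM with the largest called log2 changes whose groups do not overlap (for the interaction without that condition), the highest by RPKM, and list members with their coding partners. Members and lists were chosen with earlier results of these data known. Alternatives were RLE and upper-quartile scaling, DESeq2 1.42.0, no expression filter, a replicate block, leaving out each library, fits of 2 groups alone, a mean count of at least 50, and members without shared exon bases. Counts limit precision for weak members: a group mean under 20 counts was found for 202 members in DMSO, 129 in indisulam, 51 with alectinib and 103 in the combination. These members met the minimum count through other groups, where their counts were higher, and they are part of the shares called. A member low in some groups could likewise meet the 1 CPM minimum for naming only through the others. A marker gene is not reported here and was left out of its list.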

Additional observations from a re-analysis of the deposited data

Results flagged for a closer look

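Values in single libraries that stood apart from the other 3 of their group were found in 11 of 200 groups of 4 checked, and chance gives about 1 in 20. They were the member share of counts in DMSO (highest library 0.483%) and in alectinib (lowest 0.526%), the share of intron-only members in DMSO (highest 0.0493%) and that of exon-overlapping members in alectinib (lowest 0.396%). Among members they were SGMS1-AS1 in DMSO (highest 2.38 CPM), AC091729.3 in indisulam (lowest 0.126 CPM), ZNF337-AS1 in the combination (lowest 0.262 CPM), AC078942.1 in indisulam (highest 1.76 CPM), AC002454.1 in indisulam (highest 17.0 CPM), CPB2-AS1 in the combination (highest 0.86 CPM) and AC109597.2 in DMSO (lowest 0.4 CPM).

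The effect of alectinib differed with and without indisulam, by the interaction test, for named members. It was higher with indisulam for IL12A-AS1 (2.15), AC109597.2 (1.40), FLJ16779 (1.35), AC095055.1 (1.33), UNC5B-AS1 (1.31), SRRM2-AS1 (1.31), AC068768.1 (1.11) and Z97989.1 (1.03), as log2 differences. It was lower for AC107398.2 (-1.37), AC091887.1 (-1.31), AC073896.3 (-1.23), AP001922.5 (-1.16), AC078942.1 (-1.14), AL035587.1 (-1.06), AL357033.3 (-0.997), H1FX-AS1 (-0.79) and AL359922.2 (-0.70). Z97989.1 fell by 0.78 with alectinib alone and was 0.30 above DMSO in the combination. IL12A-AS1 and UNC5B-AS1 met the 1 CPM minimum only through the combination, so that their values are a description.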

How the results depend on the processing

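Of 12 shares of members called (6 comparisons, 2 directions), the share lower with alectinib (2.2%) was 1.44% under upper-quartile scaling, 3.62% among members with a mean count of at least 50 and 1.34% among members sharing no exon base. The share with an interaction above 0 (2.36%) was 3.65% by DESeq2, 3.62% with a mean count of at least 50, 1.34% without shared exon bases, and 1.52 to 2.36% with 1 library left out. The share below 0 (4.03%) was 2.2 to 5.62% with 1 library left out, with 2.58% and 2.66% without DMSO replicates 2 and 4, 2.2% without indisulam replicate 1, and 2.43% and 2.66% without alectinib replicates 1 and 4; the cause was not tested. The other shares stayed within 1.5 times under every alternative, and with 1 library left out ran from 21.8 to 25.7% higher and 15.7 to 19.1% lower with indisulam, 13.2 to 18.1% higher and 1.67 to 2.36% lower with alectinib, 32.1 to 35.2% higher and 16.5 to 19.1% lower with the combination, 17.2 to 21.0% and 6.0 to 8.74% for the combination against indisulam, and 22.4 to 25.6% and 21.7 to 24.3% against alectinib. Upper-quartile scaling moved the median log2 change of all genes by 0.12 in the combination. For the 72 results of the 45 members named by their change, 1489 values under alternatives kept their call, 23 lost it (AL022328.4, AC003102.1, AC107398.2 and AP001922.5) and 0 reversed. Members named by level or list alone were not run. Libraries with the same replicate number correlated at -0.06 to 0.17 over 24 pairs, and 9 of 16 were closest to their own number. With the replicate block, 334 members were higher and 252 lower with indisulam, 244 and 32 with alectinib, and 468 and 255 with the combination.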

Other observations

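The nuclear RNA exosome degrades unstable antisense RNAs and Integrator ends short transcription at many promoters, so genes of both were listed beside the members. Of 25 exosome and adaptor genes tested, 5 were higher and 8 lower with indisulam, 1 and 3 with alectinib, and 9 and 9 with the combination. Of all genes, 23.0% and 24.8% were higher and lower with indisulam, 9.99% and 12.3% with alectinib, and 29.7% and 30.6% with the combination, and the counts with indisulam and the combination lie near those shares. EXOSC10, the nuclear exonuclease, fell by 0.99 with indisulam and 1.42 with the combination (edgeR adjusted p = 1.05e-10 and 8.75e-14), and NCBP1, the cap-binding subunit, by 1.06 with the combination (adjusted p = 5.06e-12). Of 14 Integrator genes, 4 were higher and 7 lower with indisulam, 1 and 0 with alectinib, and 2 and 8 with the combination, and INTS10 fell by 0.69 with indisulam (adjusted p = 1.06e-09). The largest rises with indisulam were those of NCBP2 and INTS2, by 0.44 each (edgeR adjusted p = 3.32e-07 and 1.55e-05). The part of these genes in the members' levels was not tested. EXOSC10, NCBP1, INTS10, NCBP2 and INTS2 were picked after their values were seen.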
